A study of Mus musculus with 30 samples.

Results

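Pluripotency and the exit from it were followed through 9 genes chosen by name: Pou5f1, Nanog, Zfp42, Otx2, Pou3f1, Fgf5, Utf1, Pim2 and Tdgf1. Each had a row among the 54134 rows of the count table, and all 9 passed the filter on low counts (more than 10 counts and more than 2 CPM, counts scaled to a common library total, in at least 2 libraries of 1 group), as did 12149 genes in all. The data were 30 RNAseq libraries of mouse Bruce4 cells, an established embryonic stem cell (ESC) line, in 10 groups of 3 replicates: wildtype or Nr6a1-/- cells at each of 5 stages of differentiation towards neuromesodermal progenitors (NMPs), which give rise to spinal cord and paraxial mesoderm. All groups were grown in N2B27 medium with FGF2, and the ESCs had been kept on feeder cells that were removed before the start. The d2 cells had FGF2 for 48 h. The d2.5 and d3 cells had in addition CHIR99021, an activator of the Wnt pathway, for 12 h and 24 h, the d4 cells stayed in it for another 24 h, and the d4G cells had Gdf11 as well during those last 24 h. The Nr6a1-/- cells were 1 clone with a CRISPR/Cas9 deletion in exon 4 of each Nr6a1 allele, so genotype and clone cannot be told apart in any comparison.

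In the mouse embryo, cells leave the naive pluripotency of the inner cell mass, pass through a formative state and become the primed epiblast, from which the germ layers and the axial progenitors arise. Pou5f1 (Oct4) is a transcription factor required throughout these states, Nanog marks the naive state and returns in the posterior epiblast, and Zfp42 (Rex1) marks naive ESCs. Otx2, Pou3f1 (Oct6) and Fgf5 mark the formative and primed epiblast. Nr6a1, also called GCNF, is an orphan nuclear receptor known as a repressor of Pou5f1.

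Library totals ranged from 1570714 to 3688197 counts, and a count of 0 in a library allowed up to 0.813 to 1.91 CPM, which covers counting error only. The labels number the replicates without naming separate cultures, so p-values measure the spread between these libraries, which may be technical. By its label, each d4 library carried the same index sequence, the tag that marks a library, as a library of d4G or d3. Libraries with the same index may have been in separate pools. Stage and pool could then not be told apart where d4 is compared with d3 or d4G. The 9 NMP markers (T, Nkx1-2, Cdx1, Cdx2, Cdx4, Wnt3a, Fgf17, Sp5 and Sox2) summed to 129.9 to 154 CPM in the d2 wildtype libraries and 1077 to 1173 CPM in those of d3, the stage labelled as NMP. Nr6a1 averaged 177 CPM in wildtype cells against 287 CPM in Nr6a1-/- cells at d3, but libraries primed at the 3′ end read away from the deletion, so its counts do not check the labels. Replicate 2 of d4 wildtype stood apart from its group. Apart from the 9 genes, 26 genes had at least 20 CPM at d2 wildtype and 1/20 of that or less in the other 2 libraries of d4 wildtype. Replicate 2 held them at 26.8% of their d2 level, and the d4 Nr6a1-/- libraries and all d4G libraries at 3.75% to 5.55%. The other 2 libraries of d4 wildtype, which chose the genes, are not in that range. The same search with replicate 1 held out found 1 gene, at 12.6% of its d2 level, and with replicate 3 it found 0. In those searches replicate 2 was 1 of the 2 libraries that chose the genes. Few genes could then pass, so these counts do not show how much d2 transcript replicates 1 and 3 held. Because replicate 2 stood apart, the values of the 9 genes that use d4 wildtype are given with and without it.

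Pou5f1 (chromosome 17, 35506018 to 35510772, plus strand, GRCm38) was higher in Nr6a1-/- cells at d2.5 and d3. Its promoter is shown with that of Nanog because both held the half-site AGGTCA that many nuclear receptors recognise, and those of Zfp42 and Pim2 because they held the octamer ATGCAAAT, which POU factors such as Pou5f1 and Pou3f1 recognise. The sequences are RefSeq promoters (GRCm38.p6), from 250 bases before to 50 bases after the start, 5′ to 3′, with either motif on either strand in capitals. An entry was found for 8 of the 9 genes. The regions are chr17:35505782-35506081, plus strand for Pou5f1, chr6:122707239-122707538, plus strand for Nanog, chr8:43306960-43307259, minus strand for Zfp42 and chrX:7878056-7878355, plus strand for Pim2, each the first promoter listed for its gene.
Pou5f1: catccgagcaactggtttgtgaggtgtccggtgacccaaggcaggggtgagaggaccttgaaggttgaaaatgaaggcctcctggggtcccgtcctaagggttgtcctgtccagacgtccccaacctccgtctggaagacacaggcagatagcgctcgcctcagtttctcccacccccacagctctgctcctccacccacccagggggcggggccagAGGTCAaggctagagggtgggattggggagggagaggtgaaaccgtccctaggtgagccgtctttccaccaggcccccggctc
Nanog: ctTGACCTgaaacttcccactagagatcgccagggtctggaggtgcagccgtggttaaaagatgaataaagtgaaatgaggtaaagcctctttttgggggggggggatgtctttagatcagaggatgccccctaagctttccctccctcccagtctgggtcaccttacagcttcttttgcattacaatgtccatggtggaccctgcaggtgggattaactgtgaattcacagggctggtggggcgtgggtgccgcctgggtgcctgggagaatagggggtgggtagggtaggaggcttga
Zfp42: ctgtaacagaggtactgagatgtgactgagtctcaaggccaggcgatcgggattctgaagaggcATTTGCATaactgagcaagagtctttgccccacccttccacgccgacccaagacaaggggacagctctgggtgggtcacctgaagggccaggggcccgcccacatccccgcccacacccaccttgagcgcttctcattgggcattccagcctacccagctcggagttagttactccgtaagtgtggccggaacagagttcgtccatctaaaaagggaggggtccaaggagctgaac
Pim2: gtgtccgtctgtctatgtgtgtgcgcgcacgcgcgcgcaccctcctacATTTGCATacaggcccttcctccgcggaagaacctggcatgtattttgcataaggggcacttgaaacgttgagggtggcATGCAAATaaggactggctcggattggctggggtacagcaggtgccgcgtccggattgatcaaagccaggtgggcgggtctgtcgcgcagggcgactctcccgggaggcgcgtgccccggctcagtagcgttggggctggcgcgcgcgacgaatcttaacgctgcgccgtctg

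The half-site was in 2 of the 8 genes with an entry and in 18.1% of the 27025 genes searched. A second promoter was listed for Pou5f1 (chr17:35508557-35508856) and for Nanog (chr6:122707315-122707614), and each held 0 half-sites. In Pou5f1 it lay 33 to 28 bases before the start on the plus strand, and AGGTCAAGG, the half-site with 3 more letters, was in Pou5f1 alone among the 8 and in 0.366% of all genes. The half-site preceded by TCA (TCAAGGTCA) was in 0 of the 8 and in 0.466% of all genes, and 2 half-sites in direct repeat with no spacer were in 0 of the 8 and in 1 gene of all. The octamer was in 2 of the 8 genes, with 1 copy in Zfp42 and 2 in Pim2, and in 1.97% of all genes. These are matches of letters, and no binding was measured here.

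In wildtype replicates 1 to 3 the level of Pou5f1 was 20.6, 17.5 and 19.3 CPM at d2 and 13.8, 14.7 and 14.2 CPM at d2.5. At d3 the wildtype libraries held 7.72, 7.83 and 5.60 CPM, those of d4 1.31, 4.14 and 0.901 CPM, and those of d4G 0, 0.406 and 2.11 CPM. In Nr6a1-/- replicates 1 to 3 its level was 24.0, 25.1 and 22.8 CPM at d2 and 25.7, 21.0 and 28.6 CPM at d2.5. At d3 the Nr6a1-/- libraries held 20.5, 19.7 and 21.9 CPM, those of d4 2.17, 1.94 and 4.26 CPM, and those of d4G 0.481, 0.637 and 1.72 CPM. The lowest Nr6a1-/- library was above the highest wildtype library at d2, d2.5 and d3, and the genotypes overlapped at d4 and d4G. The share of all genes whose genotypes did not overlap was not counted. A lack of overlap, here or for the genes below, therefore does not set a gene apart. At d3, 36.9% of the d2 mean was left in wildtype and 86.4% in Nr6a1-/- cells. In RNA of whole cultures, fewer cells with a transcript and less transcript per cell cannot be told apart.

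A gene was called where edgeR's quasi-likelihood test gave a false discovery rate (FDR, adjusted by Benjamini-Hochberg over the 12149 genes) below 0.05. Pou5f1 was called higher in Nr6a1-/- cells at d2.5, with a log2 fold change of 0.82 ± 0.23 (SE, FDR = 0.0264), and at d3, with 1.56 ± 0.27 (SE, FDR = 9.74e-05). At d2 the value was 0.32 ± 0.22 (SE, FDR = 0.508), with a 95% interval of -0.14 to 0.78. The d3 call was kept under all 14 alternative settings. The d2.5 call was lost without any 1 of the 3 wildtype libraries and without Nr6a1-/- replicate 1 or 3, the FDR over its alternatives running from 0.0102 to 0.1298. At d4 the difference was 0.32 ± 0.49 (SE, FDR = 0.710) with all libraries and 1.34 ± 0.59 (SE, FDR = 0.128) without wildtype replicate 2. At d4G each genotype had 6 counts in all, and a difference was not detectable at this depth.

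Nanog (chromosome 6, 122707489 to 122714633, plus strand), a homeodomain factor, rose in the first 12 h of CHIR99021 in both genotypes. In wildtype replicates 1 to 3 its level was 20.1, 19.6 and 25.5 CPM at d2 and 46.2, 50.8 and 65.8 CPM at d2.5. At d3 the wildtype libraries held 14.0, 13.3 and 13.2 CPM, those of d4 3.92, 8.01 and 9.61 CPM, and those of d4G 11.6, 9.34 and 8.85 CPM. In Nr6a1-/- replicates 1 to 3 its level was 13.7, 17.6 and 18.6 CPM at d2 and 60.2, 56.4 and 79.4 CPM at d2.5. At d3 the Nr6a1-/- libraries held 14.4, 15.0 and 11.2 CPM, those of d4 4.33, 6.77 and 5.54 CPM, and those of d4G 7.70, 4.46 and 6.86 CPM. Every d2.5 library was above every library of the other stages in its genotype. The rise from d2 to d2.5 was 1.30 ± 0.18 (SE, FDR = 9.52e-07) on the log2 scale in wildtype and 1.96 ± 0.18 (SE, FDR = 7.69e-11) in Nr6a1-/- cells. From d2.5 to d3 it changed by -2.001 ± 0.20 (SE, FDR = 1.76e-09) and -2.27 ± 0.19 (SE, FDR = 8.46e-12). Between genotypes Nanog was called at 0 of the 5 stages by edgeR and at 0 by DESeq2, and 0 stages had an unadjusted p under 0.05. Its differences ran from -0.60 ± 0.31 (SE, FDR = 0.281) at d4G to 0.27 ± 0.16 (SE, FDR = 0.352) at d2.5, and at d3 the 95% interval was -0.50 to 0.49. In d4 wildtype, replicate 2 lay between the other 2 libraries for this gene.

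Zfp42 (chromosome 8, 43295063 to 43306980, minus strand), a zinc finger protein, was lower in Nr6a1-/- cells from d2.5 to d4. In wildtype replicates 1 to 3 its level was 20.1, 13.3 and 17.2 CPM at d2 and 24.3, 21.3 and 19.7 CPM at d2.5. At d3 the wildtype libraries held 10.6, 12.9 and 12.8 CPM, those of d4 6.54, 4.70 and 5.40 CPM, and those of d4G 5.58, 4.06 and 5.06 CPM. In Nr6a1-/- replicates 1 to 3 its level was 12.2, 11.6 and 11.4 CPM at d2 and 10.4, 11.2 and 9.30 CPM at d2.5. At d3 the Nr6a1-/- libraries held 3.61, 4.28 and 5.58 CPM, those of d4 1.30, 3.39 and 0.852 CPM, and those of d4G 3.85, 1.27 and 3.003 CPM. At each stage the highest Nr6a1-/- library was below the lowest wildtype library. The log2 difference was -0.54 ± 0.22 (SE, FDR = 0.182) at d2, which was not called, and -1.08 ± 0.21 (SE, FDR = 9.34e-04) at d2.5. It was -1.42 ± 0.27 (SE, FDR = 4.45e-04) at d3 and -1.58 ± 0.39 (SE, FDR = 0.00286) at d4. The d4 call was kept without wildtype replicate 2, at -1.71 ± 0.42 (SE, FDR = 0.00390), and was lost without Nr6a1-/- replicate 3 and when all libraries were thinned to the smallest total (highest FDR = 0.131). At d4G the value was -0.77 ± 0.38 (SE, FDR = 0.300).

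Other genes of the chromosome that carries Zfp42 moved with the genotype as well. Of the 654 genes of chromosome 8 that were tested, 73.5% to 88.7% had a lower value in Nr6a1-/- cells, depending on the stage, with medians of -0.38 to -0.29 (log2) beside 0.00 to 0.03 for the other chromosomes. In stage order from d2 to d4G, the genes with a value below that of Zfp42 made up 26.4%, 2.75%, 3.67%, 4.13% and 11.9% of those 654. The part of the chromosome in the difference of Zfp42 was not tested.

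**Figure D1:**
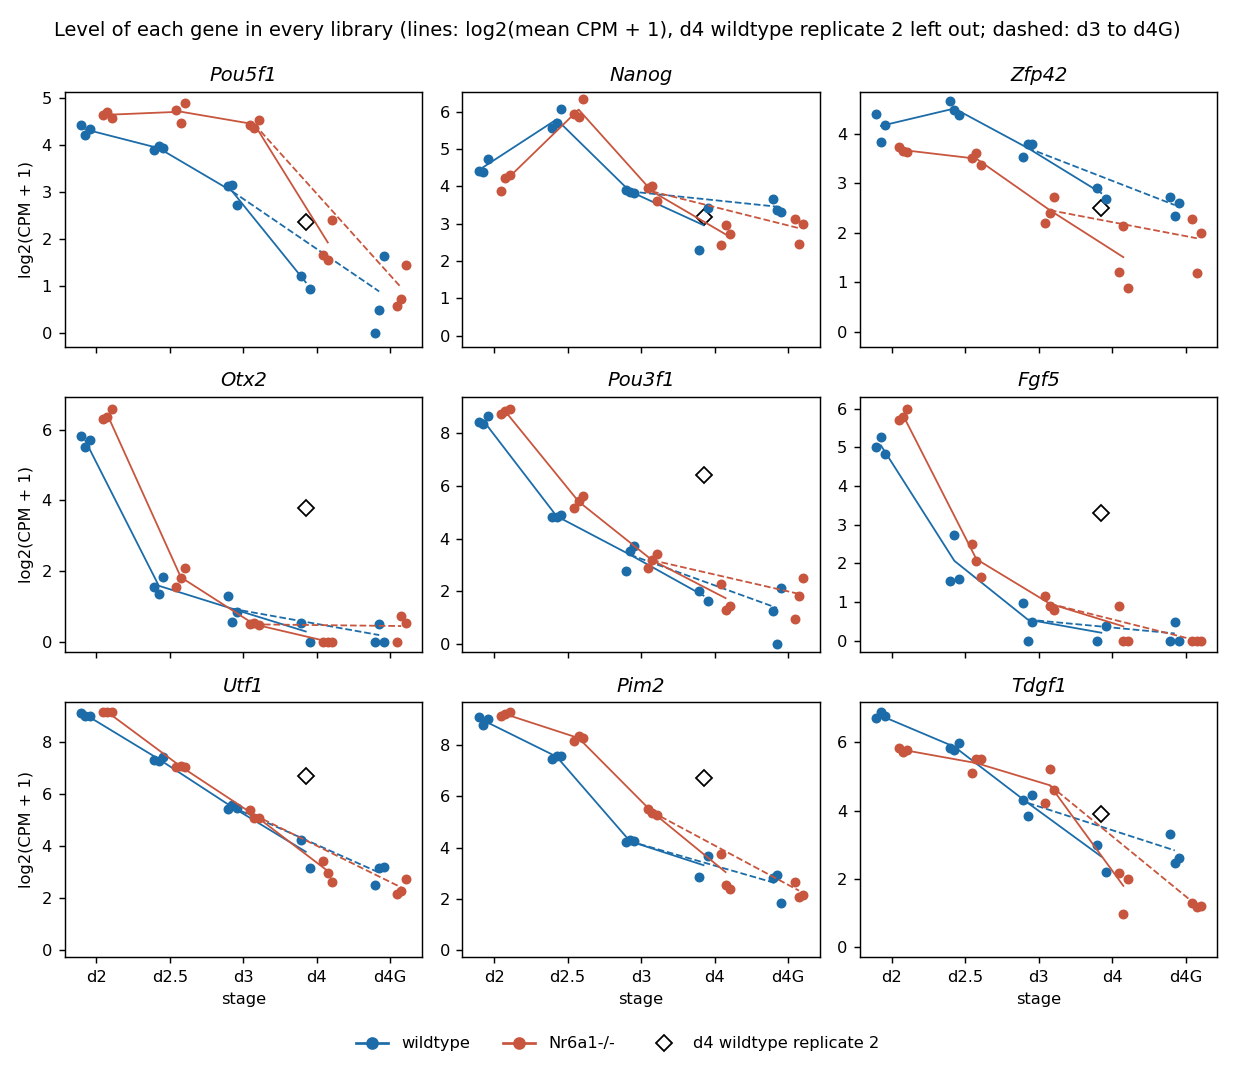
Level of each of the 9 genes in every library, as log2(CPM + 1) against stage, for wildtype and Nr6a1-/- cells with 3 libraries per group. Lines join the values of the group means, dashed from d3 to d4G, and leave out d4 wildtype replicate 2, drawn as an open diamond. Pou5f1 kept 86.4% of its d2 mean at d3 in Nr6a1-/- cells, Nanog was highest at d2.5 in both genotypes, and the diamond stands above its group for Otx2, Pou3f1, Fgf5, Utf1 and Pim2.

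Otx2, Pou3f1 and Fgf5, the markers of the formative and primed epiblast, fell within 12 h of CHIR99021 in both genotypes. Otx2 (chromosome 14, 48657677 to 48673819, minus strand), a homeodomain factor active in the exit from the naive state, was at 55.1, 44.6 and 51.6 CPM in the d2 wildtype libraries and at 77.2, 81.6 and 95.6 CPM in those of Nr6a1-/- cells. The d2.5 libraries held 1.52 to 2.53 CPM in wildtype cells against 1.92 to 3.22 CPM in Nr6a1-/- cells. That was 3.94% and 2.98% of the d2 mean, and the changes were -4.64 ± 0.50 (SE, FDR = 7.38e-09) and -5.04 ± 0.41 (SE, FDR = 9.06e-12). At d4 the wildtype libraries held 1, 46 and 0 counts of Otx2, so that replicate 2, at 12.7 CPM, made nearly the whole of the mean of 4.38 CPM. The d4 Nr6a1-/- libraries held 0 counts, at least 9.82-fold lower than that mean against a limit of 3 counts over the group. Without replicate 2 the wildtype mean was 0.218 CPM, which is under that limit of 0.446 CPM, and no fold is given.

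Pou3f1 (chromosome 4, 124656807 to 124660655, plus strand), a POU domain factor of the epiblast and the early neural lineage, was at 342, 323 and 398 CPM in the d2 wildtype libraries and at 415, 458 and 481 CPM in those of Nr6a1-/- cells. The d2.5 libraries held 27.2 to 28.8 CPM and 34.5 to 47.9 CPM, with changes of -3.67 ± 0.44 (SE, FDR = 5.26e-08) and -3.45 ± 0.40 (SE, FDR = 2.06e-08). From d2.5 to d3 the value was -1.53 ± 0.68 (SE, FDR = 0.151) in wildtype, which was not called, and -2.34 ± 0.61 (SE, FDR = 0.00655) in Nr6a1-/- cells. At d4 it was at 3.05, 83.2 and 2.10 CPM in wildtype and at 3.90, 1.45 and 1.70 CPM in Nr6a1-/- cells, and wildtype replicate 2 was the 1 library outside the range of the others.

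Fgf5 (chromosome 5, 98254184 to 98277030, plus strand), a secreted growth factor and a classical marker of the postimplantation epiblast, was at 31.1, 37.7 and 27.5 CPM in the d2 wildtype libraries and at 51.3, 53.9 and 63.0 CPM in those of Nr6a1-/- cells. The d2.5 libraries held 1.91 to 5.59 CPM and 2.15 to 4.60 CPM, with changes of -3.31 ± 0.47 (SE, FDR = 1.64e-06) and -4.08 ± 0.40 (SE, FDR = 6.83e-10). At d3 the highest of the 6 libraries was at 1.21 CPM. The d4 wildtype libraries were at 0, 8.84 and 0.300 CPM, those of d4 Nr6a1-/- cells at 0.866, 0 and 0 CPM, and the 6 libraries of d4G held 1 count.

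At d2, the 3 Nr6a1-/- libraries were above the 3 wildtype libraries for Otx2, Fgf5 and Pou3f1. The other genes followed here did not overlap at d2 either, Utf1 among them at 0.10 ± 0.27 (SE, FDR = 0.912). The log2 differences were 0.75 ± 0.26 (SE, FDR = 0.113) for Otx2, 0.82 ± 0.28 (SE, FDR = 0.103) for Fgf5 and 0.35 ± 0.34 (SE, FDR = 0.668) for Pou3f1, and none was called in the fit of all 30 libraries. Replicate 2 of d4 wildtype is in neither d2 group, but it enters the spread that this fit estimates for each gene. Without it the differences were 0.75 ± 0.14 (SE, FDR = 5.35e-04) for Otx2 and 0.83 ± 0.19 (SE, FDR = 0.00570) for Fgf5, which were called, and 0.35 ± 0.13 (SE, FDR = 0.114) for Pou3f1, which was not. When only the 6 libraries of d2 were fitted, and when no filter on low counts was used, all 3 genes were called higher (lowest FDR = 0.00864 for Pou3f1).

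Utf1 and Pim2 fell over both steps up to d3 in both genotypes. Utf1 (chromosome 7, 139943789 to 139945112, plus strand) is a chromatin-bound factor of pluripotent cells. In wildtype replicates 1 to 3 its level was 554, 514 and 512 CPM at d2 and 158, 152 and 169 CPM at d2.5. At d3 the wildtype libraries held 42.0, 46.5 and 42.8 CPM, those of d4 17.4, 100.3 and 7.80 CPM, and those of d4G 4.65, 7.71 and 8.01 CPM. In Nr6a1-/- replicates 1 to 3 its level was 559.7, 571 and 559 CPM at d2 and 130.4, 133 and 129 CPM at d2.5. At d3 the Nr6a1-/- libraries held 40.5, 32.5 and 32.7 CPM, those of d4 9.53, 6.77 and 5.11 CPM, and those of d4G 3.37, 3.82 and 5.58 CPM. In wildtype cells 30.3% of the d2 mean was left at d2.5 and 8.31% at d3, and in Nr6a1-/- cells 23.3% and 6.26%. The changes to d2.5 were -1.72 ± 0.29 (SE, FDR = 1.90e-05) and -2.10 ± 0.29 (SE, FDR = 5.07e-07), and those from d2.5 to d3 were -1.87 ± 0.34 (SE, FDR = 1.62e-04) and -1.89 ± 0.34 (SE, FDR = 9.47e-05). Between genotypes the log2 values at d2, d2.5 and d3 lay between -0.31 and 0.10 and none was called, although the libraries of the genotypes did not overlap at those stages. With only the 6 libraries of d2.5 fitted, Utf1 was called lower there (FDR = 0.0409).

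Pim2 (chromosome X, 7878262 to 7883432, plus strand) is a serine/threonine kinase that promotes cell survival. In wildtype replicates 1 to 3 its level was 548, 442 and 514 CPM at d2 and 177, 193 and 191 CPM at d2.5. At d3 the wildtype libraries held 17.4, 18.4 and 18.0 CPM, those of d4 6.10, 106 and 11.7 CPM, and those of d4G 6.05, 6.50 and 2.53 CPM. In Nr6a1-/- replicates 1 to 3 its level was 564, 588 and 629 CPM at d2 and 285, 330.5 and 314 CPM at d2.5. At d3 the Nr6a1-/- libraries held 45.0, 39.8 and 37.9 CPM, those of d4 12.6, 4.84 and 4.26 CPM, and those of d4G 5.29, 3.18 and 3.43 CPM. From d2 to d2.5 Pim2 changed by -1.43 ± 0.31 (SE, FDR = 7.76e-04) in wildtype and -0.94 ± 0.30 (SE, FDR = 0.0192) in Nr6a1-/- cells, calls that DESeq2 did not make, the second being lost also without d2.5 replicate 1. From d2.5 to d3 it changed by -3.38 ± 0.43 (SE, FDR = 3.80e-07) and -2.92 ± 0.36 (SE, FDR = 1.29e-07). At d2.5 and d3 the Nr6a1-/- libraries were all above the wildtype libraries, with means of 309.6 against 187 CPM and of 40.9 against 17.9 CPM. The log2 differences were 0.73 ± 0.31 (SE, FDR = 0.180) and 1.19 ± 0.49 (SE, FDR = 0.126) in the fit of all libraries, and were not called. Without d4 wildtype replicate 2 they were 0.72 ± 0.12 (SE, FDR = 1.04e-04) and 1.19 ± 0.19 (SE, FDR = 2.70e-05), and both were called. They were called as well when only the libraries of the stage were fitted and when no filter on low counts was used.

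Tdgf1 (chromosome 9, 110939603 to 110946158, minus strand), also called Cripto, is a membrane-anchored coreceptor for Nodal and its relatives. In wildtype replicates 1 to 3 its level was 103, 116 and 107 CPM at d2 and 56.2, 53.4 and 62.2 CPM at d2.5. At d3 the wildtype libraries held 18.8, 13.3 and 20.8 CPM, those of d4 6.97, 13.8 and 3.60 CPM, and those of d4G 8.84, 4.47 and 5.06 CPM. In Nr6a1-/- replicates 1 to 3 its level was 56.0, 51.3 and 53.9 CPM at d2 and 33.4, 44.8 and 44.4 CPM at d2.5. At d3 the Nr6a1-/- libraries held 17.7, 36.4 and 23.1 CPM, those of d4 3.46, 0.968 and 2.98 CPM, and those of d4G 1.44, 1.27 and 1.29 CPM. At every stage but d3 the Nr6a1-/- libraries were all below the wildtype libraries, and at d3 the genotypes overlapped and the Nr6a1-/- mean was the higher one. The log2 difference was -1.01 ± 0.18 (SE, FDR = 3.30e-04) at d2, which was kept under all 14 alternatives. It was -0.48 ± 0.20 (SE, FDR = 0.154) at d2.5 and 0.52 ± 0.25 (SE, FDR = 0.205) at d3, and neither was called in the fit of all libraries. With only the libraries of d2.5 fitted, Tdgf1 was called lower there (FDR = 0.0386). At d4 it was -1.71 ± 0.46 (SE, FDR = 0.00638) with all libraries and -0.99 ± 0.48 (SE, FDR = 0.178) without wildtype replicate 2, and the call was also lost without Nr6a1-/- replicate 2. At d4G it was -2.13 ± 0.61 (SE, FDR = 0.0227), from 8 counts in the 3 Nr6a1-/- libraries and 42 in wildtype. That call was lost without any 1 of the Nr6a1-/- libraries or without wildtype replicate 1 (highest FDR = 0.124).

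Whether the course from d2 to d3 differed between genotypes was tested as an interaction, positive where more was left in Nr6a1-/- cells. Tdgf1 was the 1 of 9 genes called, at 1.53 ± 0.31 (SE, FDR = 0.00276) on the log2 scale, with 16.3% of the d2 mean left in wildtype and 47.8% in Nr6a1-/- cells. Of all genes 1.19% were called in that direction and 1.09% in the other. The call was kept under all 20 alternatives. Pou5f1 was at 1.24 ± 0.35 (SE, FDR = 0.0518). Without d4 wildtype replicate 2 in the fit, 3 genes were called, namely Tdgf1 at 1.53 ± 0.26 (SE, FDR = 3.48e-04), Pim2 at 0.94 ± 0.22 (SE, FDR = 0.0127) and Pou5f1 at 1.24 ± 0.32 (SE, FDR = 0.0234). Of the 12033 genes then tested, 157 were called in the positive direction and 148 in the negative.

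**Figure D2:**
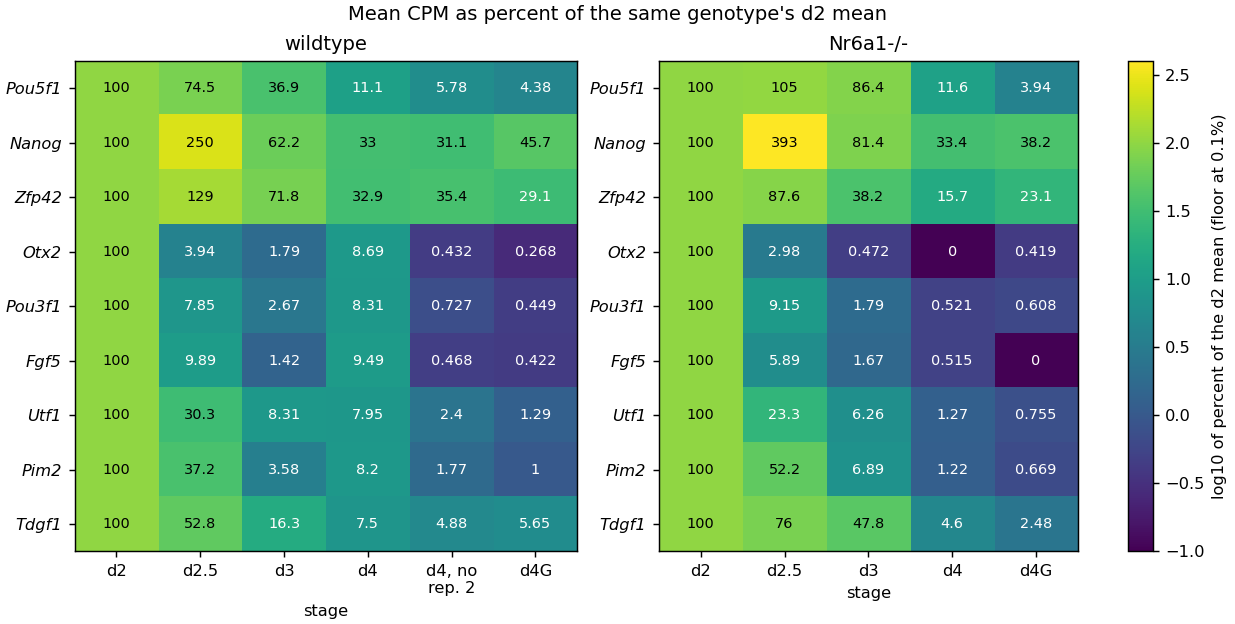
Mean CPM of each gene at each stage as percent of its mean at d2 in the same genotype, with the percent in each cell and colour on a log10 scale. The d4 wildtype mean is shown with all 3 libraries and without replicate 2. At d2.5 Otx2, Pou3f1 and Fgf5 were at 9.89% or less, at d3 Utf1 and Pim2 were at 8.31% or less, and at d4 Nanog was still at 31.1% or more.

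Counted over the 9 genes, most of the called changes up to d3 were falls. From d2 to d2.5, 6 fell and 1 (Nanog) rose in wildtype cells, where 12.1% of all genes were called lower and 13.3% higher. The genes that fell were Otx2, Pou3f1, Fgf5, Utf1, Pim2 and Tdgf1. In Nr6a1-/- cells 5 fell and 1 (Nanog) rose, against 11.2% and 12.9%. From d2.5 to d3, 6 fell and 0 rose in wildtype cells, against 5.56% and 5.91%, and 6 fell and 0 rose in Nr6a1-/- cells, against 8.45% and 7.43%. Those that fell were Pou5f1, Nanog, Zfp42, Utf1, Pim2 and Tdgf1 in wildtype and Nanog, Zfp42, Pou3f1, Utf1, Pim2 and Tdgf1 in Nr6a1-/- cells. The fall of Tdgf1 in Nr6a1-/- cells, at -0.68 ± 0.22 (SE, FDR = 0.0255), was lost on thinning and without replicate 2 or 3 of d2.5 or replicate 1 or 3 of d3, and the falls of Zfp42 were lost on thinning. Without d4 wildtype replicate 2 in the fit, 8 fell in each genotype at this second step. Of the 12033 genes then tested, 697 were called lower and 734 higher in wildtype, and 990 and 978 in Nr6a1-/- cells. The medians of the 9 genes at the 2 steps were -1.43 and -1.69 (log2) in wildtype and -0.94 and -1.89 in Nr6a1-/- cells, beside a median of 0.01 over all genes at each. Pou5f1 was among the falls from d2.5 to d3 in wildtype cells, at -1.02 ± 0.30 (SE, FDR = 0.0200), a call lost without d2.5 replicate 2 or d3 replicate 3 and on thinning. In Nr6a1-/- cells its value was -0.27 ± 0.21 (SE, FDR = 0.429), with a 95% interval of -0.71 to 0.16.

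The step from d3 to d4 in wildtype cells depended on replicate 2 of d4. With all libraries 4 of the 9 genes were called higher at d4 (Otx2, Fgf5, Pou3f1 and Pim2) and 4 lower (Pou5f1, Nanog, Zfp42 and Tdgf1), against 9.77% and 11.3% of all genes. Without it 0 were called higher and 7 lower, against 8.95% and 10.4% of the 12033 genes then tested. Pim2 turned from 1.29 ± 0.47 (SE, FDR = 0.0470) to -0.93 ± 0.27 (SE, FDR = 0.0129), Pou3f1 from 1.73 ± 0.62 (SE, FDR = 0.0422) to -1.91 ± 0.45 (SE, FDR = 0.00178) and Utf1 from 0.01 ± 0.37 (SE, FDR = 0.988) to -1.86 ± 0.20 (SE, FDR = 4.11e-09). Otx2 went from 2.42 ± 0.86 (SE, FDR = 0.0401) to -2.02 ± 1.03 (SE, FDR = 0.218) and Fgf5 from 2.84 ± 1.01 (SE, FDR = 0.0422) to -1.10 ± 1.38 (SE, FDR = 0.635), so that neither was called. The fall of Nanog, at -0.84 ± 0.26 (SE, FDR = 0.0154), was lost without d4 replicate 1 and on thinning, and that of Tdgf1, at -1.08 ± 0.30 (SE, FDR = 0.00728), without replicate 3 of d3 or of d4. Without replicate 2 of d4 those 2 were -0.89 ± 0.30 (SE, FDR = 0.0299) and -1.80 ± 0.33 (SE, FDR = 7.58e-05). Pou5f1 was at -1.61 ± 0.40 (SE, FDR = 0.00291) with it and -2.64 ± 0.49 (SE, FDR = 1.08e-04) without it, and Zfp42 at -1.15 ± 0.25 (SE, FDR = 9.17e-04) and -1.03 ± 0.29 (SE, FDR = 0.0100). In Nr6a1-/- cells 6 fell and 0 rose, against 12.3% and 13.6% of all genes. The fall of Zfp42, at -1.31 ± 0.41 (SE, FDR = 0.0174), was lost with no filter, on thinning, and without d3 replicate 3 or d4 replicate 1 or 3. Pou5f1 fell there by 2.85 ± 0.33 (SE, FDR = 1.46e-08) on the log2 scale.

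Replicate 2 of d4 wildtype held 25.2% of the d2 wildtype mean of Otx2, 27.6% of Fgf5, 23.5% of Pou3f1, 21.0% of Pim2 and 19.1% of Utf1. The other 2 libraries averaged 0.432%, 0.468%, 0.727%, 1.77% and 2.40% for the same genes. For Pou5f1 the share was 21.7% in replicate 2 and 5.78% in the others, and for Tdgf1 it was 12.7% and 4.88%. Nanog and Zfp42 were at 31.1% and 35.4% in those 2 libraries, and replicate 2 was not the highest of the group for either.

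**Figure D3:**
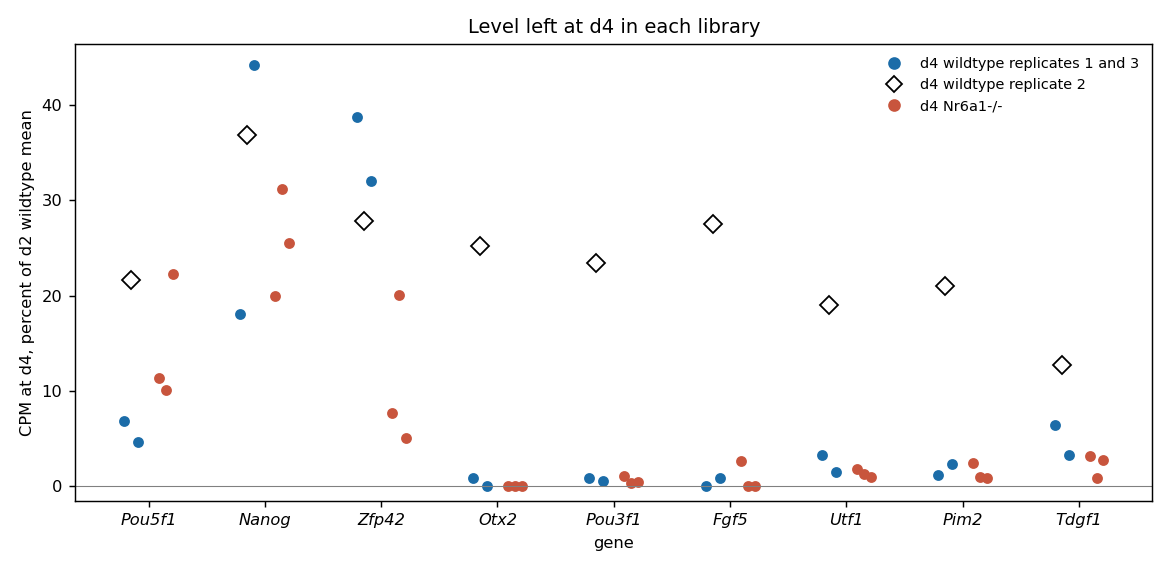
Level of each gene in each d4 library as percent of its mean at d2 wildtype, for d4 wildtype replicates 1 and 3, d4 wildtype replicate 2 and the 3 d4 Nr6a1-/- libraries. For Otx2, Pou3f1, Fgf5, Utf1 and Pim2, replicate 2 sits between 19.1% and 27.6%, and the other 5 libraries at 3.31% or less.

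Between genotypes, 1 of the 9 genes was called lower at d2 (Tdgf1) and 0 higher, against 2.72% and 1.35% of all genes. At d2.5, 1 was called higher (Pou5f1) and 1 lower (Zfp42), against 2.86% and 3.59%. At d3 the same 2 genes were called, 1 higher and 1 lower, against 4.47% and 6.30%. At d4G, 1 was called lower (Tdgf1) and 0 higher, against 4.63% and 3.28%. In the fit without d4 wildtype replicate 2, d2, d2.5 and d3 each had 2 called higher and 1 lower, Otx2 and Fgf5 being added at d2 and Pim2 at d2.5 and d3. Of the 12033 genes then tested, 210 were called higher and 330 lower at d2, 350 and 458 at d2.5, and 577 and 752 at d3. The medians of the 9 genes were 0.24 at d2, 0.27 at d2.5, -0.00431 at d3 and -0.60 at d4G (log2), beside medians over all genes of -0.01 to 0.01.

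At d4 the count of calls rested on replicate 2 of wildtype. With all libraries 7 of the 9 genes were called lower in Nr6a1-/- cells and 0 higher, against 9.18% and 9.70% of all genes, Pou5f1 and Nanog being the genes not called. Without it 1 (Zfp42) was called lower and 0 higher, against 7.64% and 7.41%. The median of the 9 genes was -2.59 with it and -0.40 without it, beside 0.02 and 0.01 over all genes. For Otx2, Pou3f1, Fgf5, Utf1 and Pim2 the genotypes overlapped at d4 even with replicate 2 included. Utf1 moved from -2.62 ± 0.51 (SE, FDR = 2.37e-04) to -0.75 ± 0.27 (SE, FDR = 0.0551) and Pim2 from -2.59 ± 0.57 (SE, FDR = 9.40e-04) to -0.37 ± 0.32 (SE, FDR = 0.489). Pou3f1 moved from -3.73 ± 0.84 (SE, FDR = 0.00127) to -0.08 ± 0.60 (SE, FDR = 0.953), with a 95% interval of -1.34 to 1.18, and Fgf5 from -3.35 ± 1.10 (SE, FDR = 0.0296) to 0.59 ± 1.48 (SE, FDR = 0.845).

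**Figure D4:**
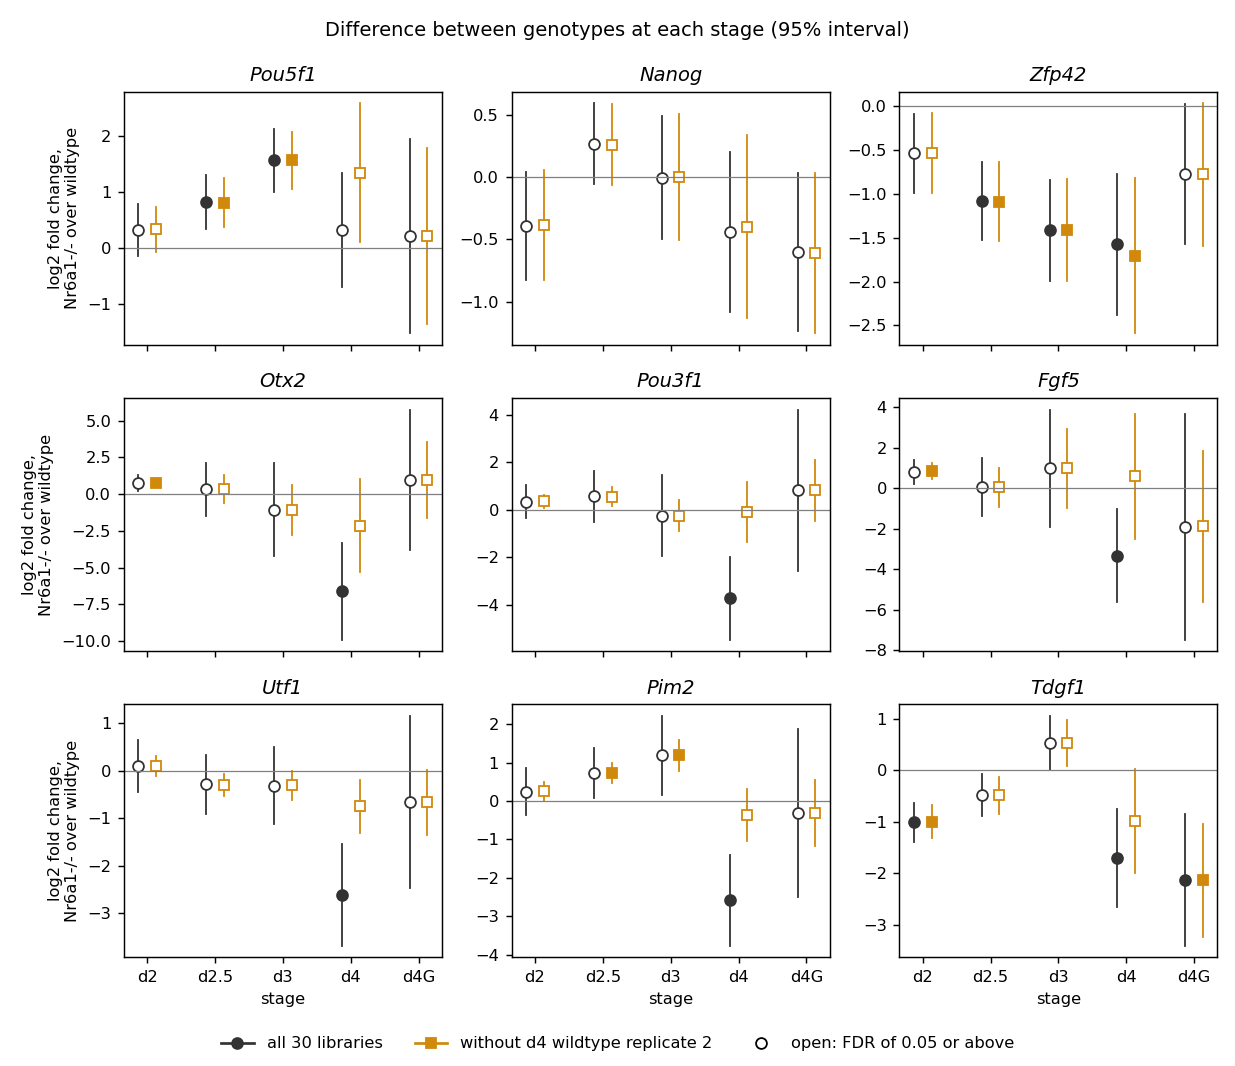
Log2 fold change of Nr6a1-/- over wildtype for each gene and stage with its 95% interval, from the fit of all 30 libraries (black circles) and the fit without d4 wildtype replicate 2 (orange squares). Filled symbols have an FDR below 0.05 and open ones do not. At d4 the values of Pou3f1, Utf1 and Pim2 move from -3.73, -2.62 and -2.59 to -0.08, -0.75 and -0.37.

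The step from d3 to d4 differed between genotypes for 3 genes with all libraries, each with the more negative change in Nr6a1-/- cells. They were Pim2 at -3.77 ± 0.76 (SE, FDR = 0.00137), Tdgf1 at -2.23 ± 0.52 (SE, FDR = 0.00645) and Utf1 at -2.31 ± 0.67 (SE, FDR = 0.0317). Of all genes 2.75% were called in this direction and 2.97% in the other. Without replicate 2 of d4 wildtype the call was kept for Pim2, at -1.56 ± 0.38 (SE, FDR = 0.0110), and lost for Tdgf1, at -1.51 ± 0.53 (SE, FDR = 0.102), and Utf1, at -0.44 ± 0.31 (SE, FDR = 0.481). That of Utf1 was lost as well without d3 wildtype replicate 1 or 3, d3 Nr6a1-/- replicate 1, or d4 Nr6a1-/- replicate 2 or 3, and when thinned or fitted with only the groups compared. These terms compare changes and not levels. Without replicate 2 of d4 wildtype, the log2 difference of Pim2 between genotypes was 1.19 ± 0.19 (SE) at d3. At d4 it was -0.37 ± 0.32 (SE, FDR = 0.489) and was not called.

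The last comparison was d4G against d4, which differed in Gdf11 and may have differed in pool as well. In wildtype cells 5 of the 9 genes were called lower at d4G (Otx2, Fgf5, Utf1, Pou3f1 and Pim2) and 0 higher with all libraries, against 14.5% and 14.3% of all genes. Without d4 wildtype replicate 2, 1 was called lower and 0 higher, against 12.0% and 11.4%. It was Utf1, at -0.80 ± 0.27 (SE, FDR = 0.0283). Of the d4 wildtype libraries left, replicate 1 was at 17.4 CPM. Replicate 3, at 7.80 CPM, lay within the d4G wildtype range of 4.65 to 8.01 CPM. In Nr6a1-/- cells 0 of the 9 were called by edgeR and 0 by DESeq2, against 9.59% lower and 8.45% higher of all genes by edgeR, and 1 gene had an unadjusted p under 0.05, namely Pou5f1 at -1.45 ± 0.65 (SE, FDR = 0.121). The responses of the genotypes differed for 0 of the 9 by edgeR and for 2 by DESeq2 with all libraries, with 2 at an unadjusted p under 0.05 in edgeR, against 1.49% and 1.17% of all genes called lower and higher. The 2 by DESeq2 were Otx2 and Pou3f1, and DESeq2 was not run without d4 wildtype replicate 2. In edgeR their log2 terms were 7.58 (FDR = 0.309) and 4.55 (FDR = 0.260) with all libraries. Without that library they were 3.11 (FDR = 0.548) and 0.90 (FDR = 0.709), and again 0 of the 9 were called. At d4G, 7 of the 9 genes were at 5.65% of their d2 mean or less in both genotypes.

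Other genes of these pathways were counted in lists, as genes called higher and lower in Nr6a1-/- cells. Among all genes, in stage order from d2 to d4G, 1.35%, 2.86%, 4.47%, 9.70% and 3.28% were called higher and 2.72%, 3.59%, 6.30%, 9.18% and 4.63% lower. Without d4 wildtype replicate 2 in the fit, 210, 350, 577, 892 and 385 of 12033 genes were called higher. Those called lower then numbered 330, 458, 752, 919 and 595. Of 13 naive pluripotency genes 10 were tested, and in stage order the genes called higher numbered 0, 1, 1, 2 and 3 and those called lower 2, 2, 6, 5 and 3, against 0, 1, 1, 2 and 3 and 2, 2, 6, 3 and 3 without d4 wildtype replicate 2 in the fit. The median at d3 was -0.89 (log2), beside 0.00 over all genes. Tbx3, at -1.70 ± 0.22 (SE, FDR = 1.14e-06), Klf4, at -1.30 ± 0.34 (SE, FDR = 0.00989), and Klf2, at -1.30 ± 0.33 (SE, FDR = 0.00679), transcription factors of naive ESCs, were among the genes lower at d3, as Zfp42 was. On chromosome 8, which carries Zfp42, 85.8% of the tested genes were lower at d3. The part of that chromosome in the counts of this list was not tested. Gbx2 was the gene called higher at d3, and Tbx3 was itself among those called higher at d4G. The 12 genes shared by naive and primed pluripotency were all tested, and in stage order the genes called higher numbered 0, 1, 0, 0 and 0 and those called lower 1, 3, 2, 5 and 3, against 1, 1, 1, 1 and 0 and 2, 3, 3, 3 and 4 without d4 wildtype replicate 2 in the fit. Their median at d3 was -0.08. Dppa5a, an RNA-binding protein of pluripotent cells, was lower at all 5 stages, with log2 differences of -0.83 to -1.06, and Sox2 was called at d4G alone, at -1.52 ± 0.26 (SE, FDR = 7.82e-05).

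Of 12 genes of the formative and primed epiblast 11 were tested, and in stage order the genes called higher numbered 0, 3, 2, 2 and 3 and those called lower 0, 2, 1, 3 and 1, against 1, 4, 4, 2 and 4 and 0, 2, 1, 1 and 1 without d4 wildtype replicate 2 in the fit. Their median at d3 was 0.21. Dnmt3b, a de novo DNA methyltransferase, was at 1721 ± 37.5 CPM (SD, n = 3) in wildtype cells against 2406 ± 25.3 CPM in the Nr6a1-/- clone at d2, a difference of 0.48 ± 0.31 (SE, FDR = 0.467) with all libraries and of 0.49 ± 0.07 (SE, FDR = 4.30e-06) without d4 wildtype replicate 2. At d4 the difference was -1.41 ± 0.36 (SE, FDR = 0.00482) with that library and 0.25 ± 0.10 (SE, FDR = 0.0809) without it. Of 15 genes of Nodal and Cripto signalling, the pathway of Tdgf1, 13 were tested, and in stage order the genes called higher numbered 0, 1, 0, 3 and 2 and those called lower 2, 3, 0, 1 and 0, against 0, 1, 0, 3 and 2 and 3, 3, 1, 0 and 0 without d4 wildtype replicate 2 in the fit. Their median at d3 was 0.12. Lefty1, a Nodal antagonist that Nodal signalling induces, was lower at d2, at -0.65 ± 0.17 (SE, FDR = 0.0177), and at d2.5, at -0.70 ± 0.13 (SE, FDR = 2.48e-04).

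Markers of other cell types that such cultures can hold moved with the genotype too, and their part in the values above was not tested. The 5 endoderm markers (Sox17, Foxa2, Gata4, Gata6 and Ttr) summed to 15.5 to 22.3 CPM in wildtype cells against 0.749 to 4.55 CPM in Nr6a1-/- libraries at d2, and to 48.1 to 64.5 and 4.26 to 9.19 CPM at d4, where Ttr was at 0 in Nr6a1-/- cells. The 6 germ cell markers (Dppa3, Prdm1, Prdm14, Nanos3, Dnd1 and Tfap2c, of which Dppa3 and Prdm14 are also on the naive list) summed to 58.4 to 67.8 and 52.0 to 58.4 CPM at d2 and to 30.9 to 42.3 and 13.6 to 20.9 CPM at d4. The 5 neural markers (Sox1, Pax6, Irx3, Neurog2 and Olig2) summed to 55.1 to 66.4 and 29.2 to 36.4 CPM at d2, with Neurog2 at 0 in both, and to 17.7 to 23.5 and 2.599 to 5.11 CPM at d4, with Olig2 at 0 in Nr6a1-/- cells. The 5 mesoderm markers (Tbx6, Msgn1, Meox1, Tcf15 and Dll1) summed to 52.0 to 61.1 and 26.8 to 31.1 CPM at d2 and to 203 to 248.6 and 609.6 to 640.4 CPM at d4, so that the sum in Nr6a1-/- libraries was lower at d2 and higher at d4. At d2, 1 of the 4 tested (Tcf15) was called lower and 0 higher, against 2.72% and 1.35% of all genes, with a median log2 difference of 0.01. At d4, 4 were called higher and 0 lower, against 9.70% and 9.18%. The 7 feeder fibroblast markers (Col1a1, Col1a2, Col3a1, Lum, Dcn, Postn and Thy1) summed to 16.5 to 22.7 and 33.4 to 39.1 CPM at d2, with Lum at 0 in both, and to 25.7 to 29.6 and 17.0 to 23.0 CPM at d4, so that the order of the genotypes turned. The 5 trophoblast markers (Elf5, Gata3, Hand1, Tfap2a and Krt7) summed to at most 13.8 CPM in any library. In d4 wildtype replicate 2 the sums were 48.1 CPM for endoderm, 31.8 for germ cells, 21.8 for neural, 203 for mesoderm and 29.6 for feeder markers.

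As a description of likeness, the log2(mean CPM + 1) of each gene was correlated with that of 9731 genes over the 10 group means, points that share their libraries between genes. Nearest to Otx2 were Fgf5 (Pearson's r = 0.984), Slc35d3 (0.979) and Foxd3 (0.977), and nearest to Pou3f1 were Dnmt3b (0.981), Fgf5 (0.977) and Enpp3 (0.976). Krtcap3 (0.985) was nearest to Pou5f1, Btaf1 (0.9754) to Nanog, L1td1 (0.994) to Utf1, Arpc5l (0.987) to Pim2 and Car2 (0.983) to Tdgf1. Nearest to Zfp42 were Def8 and Klf2 (0.9898 for each). Most tested genes of chromosome 8, which carries Zfp42, were lower in Nr6a1-/- cells, and the part of the chromosome in this likeness was not tested. Among the 9 genes the lowest value was that of Nanog with Otx2 (0.282) and the highest that of Otx2 with Fgf5. The d4 wildtype mean in these values includes replicate 2. With it left out, the same pairs had r of 0.986, 0.986 and 0.978 for Otx2 and of 0.9904, 0.979 and 0.978 for Pou3f1, but the order changed: the nearest genes were then Txlng for Otx2, Dbf4 for Fgf5, Map2 for Pou5f1, Gclm for Utf1, Snrpn for Pim2 and Zfp936 for Tdgf1, while Dnmt3b, Btaf1 and Def8 were still nearest to Pou3f1, Nanog and Zfp42. Nanog with Otx2 was then at 0.366.

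Some annotated neighbours and copies of these genes could share their reads. Otx2 is overlapped on the opposite strand by Otx2os1, which had 19 counts over the 30 libraries, and the antisense genes over Pou5f1 and Pou3f1 had 0. The copies Nanog-ps1, Nanog-ps2 and Tdgf1-ps1 had 0 counts and Tdgf1-ps2 had 1. Whether strand was used, and how reads with several matches were counted, is not given in the sources used here.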

How the data were processed

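RNA was measured in 30 libraries (10 groups of 3), primed at poly(A) tails with an index and a molecular identifier. The deposited values were counts per gene and library, which the authors made from reads aligned with STAR to mm10 (named in the submitters' processing notes). Versions, how reads were assigned and counted, and whether strand was used or identifiers were collapsed are not given in the sources used here, so counts may not be independent molecules. The 5 deposited tables of the authors' own genotype comparisons (fold changes, p-values and CPM) were not used.

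Counts were tested with edgeR 4.0.16 in R 4.3.3 (glmQLFit, glmQLFTest, 2-sided, TMM factors) in 1 fit of 10 groups for 16 comparisons, after a filter that asked for over 10 counts and over 2 CPM in 2 or more libraries of any 1 group and kept 12149 of 54134 rows and at least 99.16% of each library's counts. The script was tested on simulated data. CPM are scaled by TMM. SEs are the fold change over the square root of F, and intervals use 20 residual degrees of freedom (19 without d4 wildtype replicate 2). The alternatives were other scaling factors, no filter, only the groups compared, DESeq2 1.42.0, the replicate number as a block, thinning, and leaving out each library. Leaving d4 wildtype replicate 2 out of every comparison was added after seeing the data.

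All 9 genes are named whatever their values, with members of the pathway lists and the 3 genes of nearest pattern (at least 10 CPM in 1 group). The 9 genes and the lists were chosen with earlier results of these data known.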

Additional observations from a re-analysis of the deposited data

Results flagged for a closer look

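The change between stages differed between genotypes, by the interaction term of edgeR's quasi-likelihood test, in 4 cases. For Tdgf1 from d2 to d3 the difference was 1.53 ± 0.31 (SE, FDR = 0.00276) on the log2 scale, with the Nr6a1-/- cells keeping more of their d2 level. From d3 to d4 it was -3.77 ± 0.76 (SE, FDR = 0.00137) for Pim2, -2.31 ± 0.67 (SE, FDR = 0.0317) for Utf1 and -2.23 ± 0.52 (SE, FDR = 0.00645) for Tdgf1, with the more negative change in Nr6a1-/- cells. Without d4 wildtype replicate 2 the values from d3 to d4 were -1.56 ± 0.38 (SE, FDR = 0.0110) for Pim2, -0.44 ± 0.31 (SE, FDR = 0.481) for Utf1 and -1.51 ± 0.53 (SE, FDR = 0.102) for Tdgf1, and only that of Pim2 was called.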

How the results depend on the processing

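Of the counts of the 9 genes called, the following moved by more than 1.5 times. With d4 wildtype replicate 2 in no comparison, an alternative chosen after seeing the data, the counts between genotypes were 3 at d2 (against 1) and 1 at d4 (against 7), the wildtype step from d4 to d4G had 1 (against 5), and the differences between genotypes had 3 from d2 to d3 (against 1) and 1 from d3 to d4 (against 3). DESeq2 gave 5 for wildtype d3 to d4 (against 8), 2 for the difference from d2 to d3 and 2 for that from d4 to d4G (against 0). With no filter on low counts there were 4 at d2, 4 at d2.5 (against 2) and 3, 5 and 4 for the 3 differences in order. With only the groups compared there were 4 at d2, 6 at d2.5, 4 at d4, 4 for wildtype d3 to d4, 2 for wildtype d4 to d4G and 3 for the difference from d2 to d3. The filter of these smaller fits left 5 of the 9 genes tested at d4 and for d4 to d4G, without Pou5f1, Otx2, Fgf5 and Pou3f1, and 7 for d3 to d4, without Otx2 and Fgf5. Of the genes tested, 0 calls were lost at d4 and for d4 to d4G and 2 for wildtype d3 to d4. Thinning left 3 for wildtype d3 to d4. Leaving out 1 library at a time gave 1 to 2 at d2.5, 1 to 7 at d4, 0 to 1 at d4G, 3 to 7 for wildtype d3 to d4, 1 to 6 for wildtype d4 to d4G and 1 to 4 for the difference from d3 to d4, the lowest value at d4 being that without wildtype replicate 2.

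In 6 cases signs turned without d4 wildtype replicate 2, left out alone or of every comparison: Fgf5 between genotypes at d4 (0.59, range over single libraries -6.11 to 0.59), and from d3 to d4 in wildtype Fgf5 (-1.10, -1.10 to 3.73), Otx2 (-2.02, -2.02 to 3.05), Pim2 (-0.93, -0.93 to 1.77), Pou3f1 (-1.91, -1.91 to 2.31) and Utf1 (-1.86, -1.86 to 0.54). The cause was not tested.

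Same-numbered libraries of different groups were not treated as pairs in the main fit. Correlations of same-numbered deviations ran from -0.11 to 0.16. Same-numbered libraries of d4 and of d4G or d3 also shared an index sequence in some cases. With a replicate block 7 genes were called for wildtype d3 to d4 (against 8, Pim2 being lost at 1.22), and no other call changed. Every library correlated best with its own number in 2 comparisons, Nr6a1-/- d2 to d2.5 and d3 to d4. Of 144 values, 144 kept direction and call with RLE factors and 143 with no factors. Levels near the limit of a count of 0, as of Otx2 and Fgf5 from d3 on, limit what the depth can show.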

Other observations

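Fgf4, the growth factor that drives ESCs out of the naive state, and Gbx2, a homeobox gene that is a target of the LIF pathway in ESCs and later acts in the anterior hindbrain, were higher in Nr6a1-/- cells at stages where Zfp42 was lower. Fgf4 was at 40.6 ± 5.03 CPM (SD, n = 3) in wildtype cells against 43.7 ± 1.69 CPM in the Nr6a1-/- clone at d2, and at 16.3 ± 4.46 and 91.1 ± 14.1 CPM at d4, a log2 difference of 2.45 ± 0.16 (SE, FDR = 1.41e-14) in edgeR's test and of 2.69 ± 0.18 (SE, FDR = 2.67e-14) without d4 wildtype replicate 2. Gbx2 was at 43.3 ± 8.02 and 15.7 ± 1.53 CPM at d2, a difference of -1.44 ± 0.17 (SE, FDR = 3.07e-07), and at 52.9 ± 4.48 and 140 ± 9.56 CPM at d2.5, where the difference was 1.40 ± 0.13 (SE, FDR = 9.56e-10).

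The Nodal antagonists Lefty1 and Lefty2 were higher at d4G than at d4 in both genotypes, and more so in Nr6a1-/- cells (interaction term 1.82 ± 0.33 for Lefty1, FDR = 5.60e-04, and 3.22 ± 0.60 for Lefty2, FDR = 9.58e-04). Without d4 wildtype replicate 2 the interaction terms were 1.55 ± 0.40 (SE, FDR = 0.0418) and 3.66 ± 0.62 (SE, FDR = 2.07e-04). At d4G Lefty1 was at 70.0 ± 6.25 CPM in wildtype cells against 273 ± 12.2 CPM in Nr6a1-/- cells, a difference of 1.96 ± 0.11 (SE, FDR = 1.71e-16). Lefty2 was at 57.5 ± 9.65 and 324 ± 9.75 CPM, a difference of 2.49 ± 0.15 (SE, FDR = 2.81e-15), and the d4 means of both genes were below 5 CPM in each genotype. These genes were singled out from the pathway lists after their values were seen.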
